A study of Danio rerio with 12 samples.

Results

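This account covers the antioxidant, metal and iron response genes of whole zebrafish larvae exposed to tributyltin chloride (TBT), an organotin once common in antifouling paint and a ligand of retinoid X receptors and of PPARγ. The genes were chosen by name from a list of 40 symbols, of which 37 were listed among the 26816 genes of the deposited values and 36 had values high enough to be tested. That list and the lists of other genes below were chosen with earlier results of these data known. Their shares of called genes, set beside those of all genes, are therefore a description and no test of a set. The larvae were wild type and were collected at 5 days post fertilization (dpf) after exposure through the water from 2 to 5 dpf. There were 4 groups of 3 libraries each: a control kept in the solvent alone (0.2% v/v dimethyl sulfoxide, DMSO), and 3, 30 and 100 nM TBT in the same solvent. For each library 10 larvae were pooled, and the labels do not say whether pools of 1 group had different parents or exposure vessels. Every p-value below is therefore set against a spread among pools that may be technical in part or whole. In whole larvae, fewer cells of a type and less RNA per cell cannot be told apart.

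Of the 3 names that were not listed, 2 belonged to genes listed under another name. The files list ENSDARG00000102898 as MTF1, which encodes a zinc-sensing activator of metallothionein genes, with 38 to 67 normalised counts in the 12 libraries. The gene name table used here pairs ENSDARG00000100374 with TXNRD3, and the files list that gene as txnrd1, a thioredoxin reductase, with 4208 to 5171. Neither entered the member counts below, but txnrd1 is counted in the later list of thioredoxin and glutaredoxin system genes. MTF1 and txnrd1 did not pass the threshold at 100 nM (log2 fold change −0.13 with adjusted p = 0.705 for MTF1 and 0.03 with adjusted p = 0.869 for txnrd1, limma). No gene was listed as hmox1b. The gene listed as txnrd2 (ENSDARG00000094470) had values of 0 to 16 and was not tested. Another gene, listed as TXNRD2 in capitals, had 105 to 155 normalised counts and did not enter the counts below either. It was not called at 100 nM (log2 fold change −0.26, limma adjusted p = 0.308). The gene name table differs for other members too. It gives txn as ENSDARG00000031435, where the files list ENSDARG00000044125. It gives the name prdx1 both to ENSDARG00000058734 and to ENSDARG00000025350, which the files list as prdx2. These members are named here as in the files.

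Cells sense oxidants and electrophiles largely through NRF2, a transcription factor that KEAP1 holds in the cytosol and sends to the proteasome. When KEAP1 is modified at its cysteines, NRF2 accumulates, pairs with small MAF proteins and switches on genes of glutathione synthesis, thioredoxin recycling, NADPH supply and iron storage. Metallothioneins and ferritins bind metal ions directly, and peroxidases, superoxide dismutases and catalase remove reactive oxygen species. Zebrafish carry duplicate copies of several of these genes, including NRF2 (nfe2l2a and nfe2l2b) and KEAP1 (keap1a and keap1b).

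The files name their values normalised counts, without saying how they were normalised. Their total per library was 26515823 to 30407574 in the control and 29687308 to 35772586 at 100 nM, and the groups overlapped. Fold changes are on the scale of log2(normalised count + 1), and a gene was called when its limma p-value, adjusted by the Benjamini-Hochberg method over all 22404 genes tested, was below 0.05. At 100 nM, 3926 genes were called, 119 at 30 nM and 9 at 3 nM.

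At 100 nM the genes changed mostly upward. Of the 36 members tested, 19 (52.8%) rose against the control and 1 (2.78%), tkta, fell (limma, adjusted p below 0.05), where 9.63% of all genes tested were called higher and 7.9% lower. The members' median log2 fold change was 0.44, and that of all genes tested was −0.02. In either direction 20 members (55.6%) were called, against 17.5% of all genes. In 19 members all 3 libraries at 100 nM lay above all 3 control libraries, where this held for 14.5% of all genes, and in 2 (srxn1 and tkta) they lay below, where this held for 12.9%.

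Fewer members were called at the lower concentrations. At 30 nM, 1 member (2.78%), nfe2l2b, was called higher and 0 lower, where 0.379% of all genes were called higher, 0.152% lower and 0.531% in either direction. All 3 libraries at 30 nM lay above the control in 11 members (gclm, gsr, prdx1, prdx6, sod1, sod2, fth1a, fth1b, nfe2l2b, taldo1 and tktb) and below it in 1 (tkta), where this held for 6.98% and 7.28% of all genes. At 3 nM, 0 members were called by limma, with 5 at an unadjusted p below 0.05, where 0.0402% of all genes were called, 0.00446% higher and 0.0357% lower. The 3 nM libraries lay above the control in 6 members (prdx3, prdx6, sod2, fth1a, fth1b and nfe2l2b) and below it in 2 (srxn1 and tkta), where this held for 8.23% and 7.62% of all genes. The members' median log2 fold change was 0.14 at 3 nM and 0.25 at 30 nM, beside 0.01 and −0.00 for all genes. These counts depend on the model. With the replicate number as a term in it, 5 members and 1234 of all genes were called at 3 nM. At 30 nM it gave 4 members and 778 genes.

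More members were called between 30 and 100 nM than between 3 and 30 nM. Between 100 and 30 nM, 10 members rose and 1, gpx4a, fell, where 9.23% of all genes were called, 5.29% higher and 3.95% lower. The libraries at 100 nM lay above those at 30 nM in 15 members and below them in 2, where this held for 14% and 13% of all genes. Between 30 and 3 nM, 0 members were called by limma, with 8 at an unadjusted p below 0.05, where 0.134% of all genes were called, 0.0893% higher and 0.0446% lower. The libraries at 30 nM lay above those at 3 nM in 8 members and below them in 0, where each held for 6.49% of all genes. The rises from 30 to 100 nM in log2 fold change were 1.29 for nfe2l2b, 1.27 for sqstm1, 1.14 for gpx3, 0.86 for gclm, 0.76 for keap1b, 0.76 for gss, 0.71 for prdx1, 0.63 for fth1a, 0.44 for tktb and 0.33 for taldo1. Those of prdx1 (adjusted p = 0.0276), tktb (0.014) and taldo1 (0.026) were the ones lost when a library was left out. With only these 2 groups in the fit, the calls of fth1a (0.0626), prdx1 (0.0669), taldo1 (0.0826) and tktb (0.0573) were lost. prdx1 was lost without any 30 nM library or 100 nM replicate 1 or 3 (adjusted p up to 0.0978), and taldo1 without the same libraries (up to 0.0901) or with equal totals (0.248). tktb was lost without 30 nM replicate 1 (0.0604) or replicate 3 (0.0508), without 100 nM replicate 3 (0.0506), or with equal totals (0.179).

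Of the 20 members called at 100 nM, 10 were called in the same direction in all of the 18 alternative fits described under the processing: nfe2l2b, keap1b, sqstm1, gclm, gss, gsr, prdx1, gpx3, fth1a and tktb. The number called was 13 without control replicate 3 and 10 when only these 2 groups were in the fit. With all libraries scaled to the same total, 14 members were higher and 3 lower, or 82.4% higher of those called against 95% on the values as deposited. Over all genes called, the same scaling turned the split from 2157 higher and 1769 lower (54.9% higher) to 1127 higher and 2869 lower (28.2% higher). That scaling moved the median of all genes by −0.19. The members' median lay 0.46 above the median of all genes with and without it. This distance could hardly change, since scaling a library shifts all its genes by nearly the same amount.

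**Figure D1:**
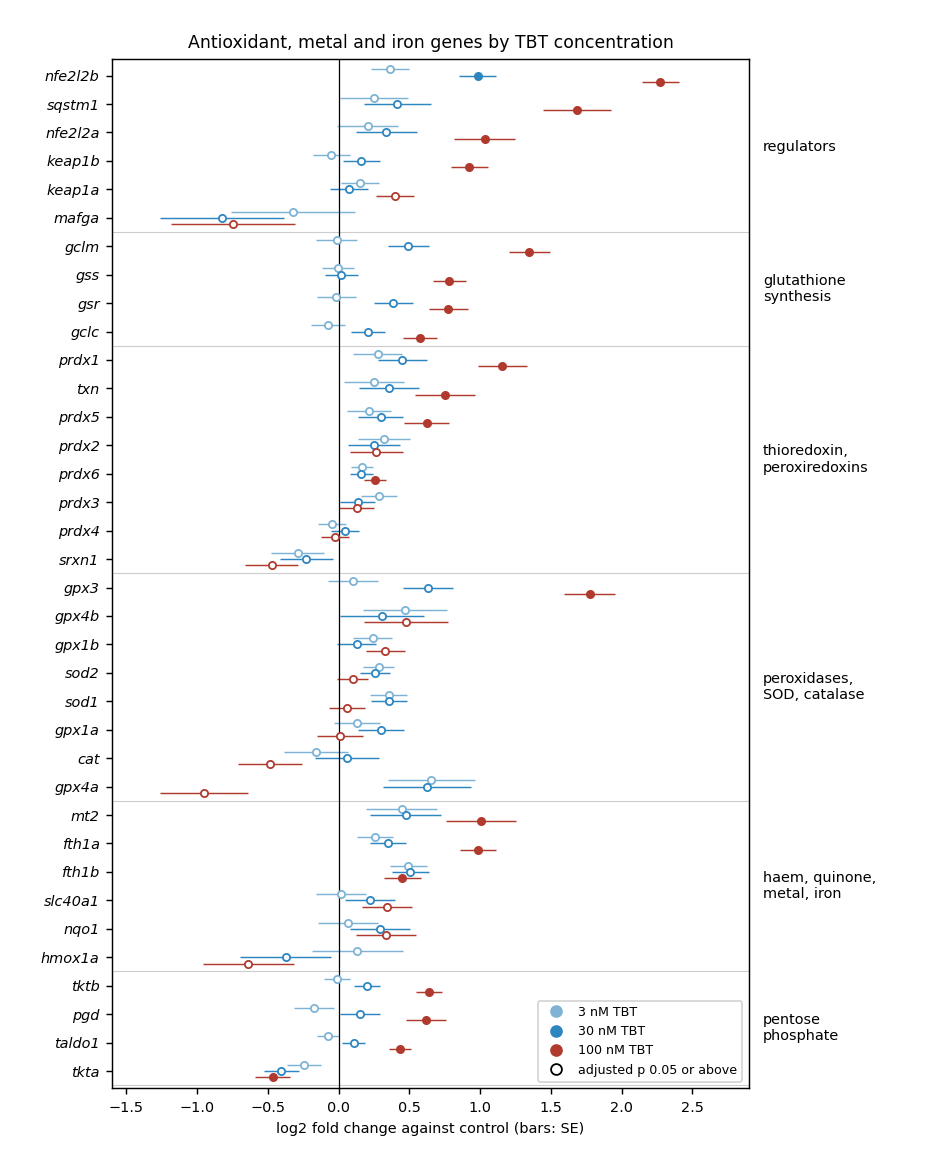
Log2 fold change against the control (x axis, bars are the SE, n = 3 libraries a group) of each of the 36 members tested (y axis), by role, at 3, 30 and 100 nM TBT. Filled points passed an adjusted p of 0.05 (limma). At 100 nM 19 points are filled to the right of 0 and 1, tkta, to the left; at 30 nM the only filled point is nfe2l2b.

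The regulators gave the largest change of the whole set. nfe2l2b (ENSDARG00000089697), an NRF2 copy reported in zebrafish embryos to act largely as a repressor, had 266, 294 and 292 normalised counts in the control libraries, 429, 296 and 383 at 3 nM, 556, 574 and 555 at 30 nM and 1480, 1234 and 1427 at 100 nM. The 3 libraries of each higher concentration from 30 nM on lay above all those of the lower ones, and the 3 nM libraries lay just above the control. The rise was 1.98-fold at 30 nM (log2 fold change 0.98 ± 0.13 SE, limma adjusted p = 0.00827) and 4.84-fold at 100 nM (2.27 ± 0.13 SE, adjusted p = 4.79e-06), and the step from 30 to 100 nM was itself called (1.29 ± 0.13 SE, adjusted p = 2.39e-04). The call at 30 nM was lost without 30 nM replicate 2 (adjusted p = 0.0542) or replicate 3 (0.0545).

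nfe2l2a (ENSDARG00000042824), the copy known as the main activator, had 9016, 5858 and 6758 normalised counts in the control, 9134, 7188 and 8351 at 3 nM, 9959, 8252 and 8772 at 30 nM and 18633, 10402 and 15834 at 100 nM. All 3 libraries at 100 nM lay above every other library, while those at 3 and 30 nM overlapped the control. The rise at 100 nM was 2.05-fold (log2 fold change 1.03 ± 0.22 SE, limma adjusted p = 0.00746), and it was not called with only these 2 groups in the fit (0.0746). The step from 30 to 100 nM (0.70) had an adjusted p of 0.0689.

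keap1b (ENSDARG00000074634), a copy of the NRF2 inhibitor gene, had 1000, 819 and 818 normalised counts in the control and 1858, 1813 and 1362 at 100 nM, with 803 to 1000 in the 6 libraries at 3 and 30 nM. Only the 100 nM libraries stood above the control, with a rise of 1.9-fold (log2 fold change 0.92 ± 0.13 SE, limma adjusted p = 7.6e-04). Its duplicate keap1a (ENSDARG00000016132) had 1260, 967 and 1054 in the control and 1701, 1263 and 1368 at 100 nM, so that the lowest treated library barely exceeded the highest control library. This difference (0.40 ± 0.13 SE, adjusted p = 0.0645) was not called, but it was called without control replicate 1 (0.0266), without 100 nM replicate 2 (0.0351) and with the replicate number in the model.

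sqstm1 (ENSDARG00000075014) encodes p62, an autophagy receptor that binds KEAP1. It had 5307, 2789 and 3199 normalised counts in the control, 4043 to 5465 in the 6 libraries at 3 and 30 nM, and 15281, 8836 and 11692 at 100 nM. The 100 nM libraries stood clear of the other 9, and the rise was 3.22-fold (log2 fold change 1.69 ± 0.24 SE, limma adjusted p = 8.25e-04). mafga, which encodes a small MAF partner of NRF2, was near the lower limit of the tested range, with 6 to 25 normalised counts in the 12 libraries, and was not called at 100 nM (−0.75 ± 0.44 SE, adjusted p = 0.278). Of the 6 regulators tested, 4 rose at 100 nM, where 9.63% of all genes tested were called higher.

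**Figure D2:**
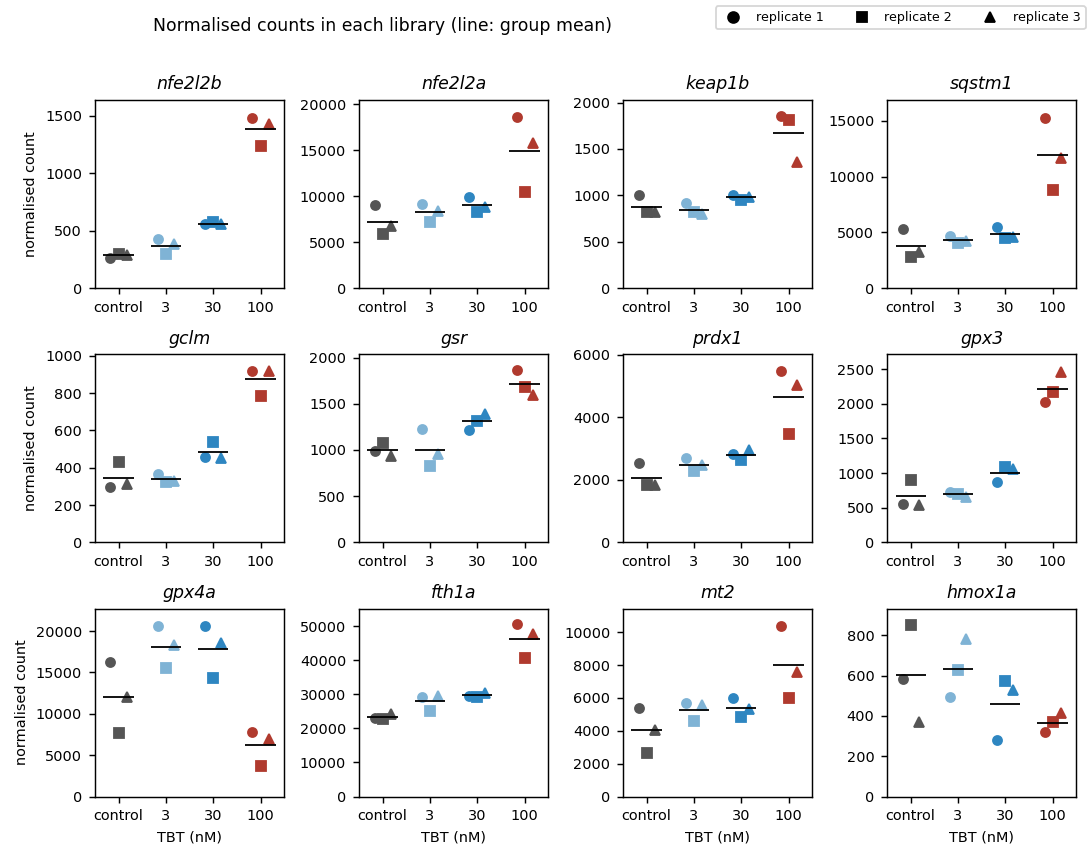
Normalised count (y axis, linear from 0) in each of the 12 libraries for 12 members by TBT concentration in nM (x axis); marker shapes give the replicate number and lines the group mean. nfe2l2b climbs from 30 nM on, gpx4a lies lowest at 100 nM, and hmox1a overlaps between the control and 100 nM.

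All 4 genes of glutathione synthesis and recycling rose at 100 nM, where 9.63% of all genes tested were called higher. Their median log2 fold change was 0.78. Glutathione is made by glutamate-cysteine ligase, whose catalytic subunit is encoded by gclc and modifier subunit by gclm, and then by glutathione synthetase (gss), while glutathione reductase (gsr) regenerates it from its oxidised form. gclm (ENSDARG00000018953) had 295, 432 and 314 normalised counts in control pools, 324 to 366 at 3 nM, 456, 538 and 454 at 30 nM and 916, 787 and 919 at 100 nM. The 30 nM libraries already lay above all control libraries, but their difference (0.49 ± 0.15 SE) had an adjusted p of 0.236. This 30 nM difference was called only without control replicate 2 (limma adjusted p = 0.0293). At 100 nM gclm rose 2.54-fold (1.35 ± 0.15 SE, limma adjusted p = 1.7e-04).

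gss (ENSDARG00000037706) had 342, 316 and 317 normalised counts in the control, 300 to 343 at 3 and 30 nM, and 638, 474 and 580 at 100 nM. It hardly varied over the 9 libraries up to 30 nM and lay above them in all 3 at 100 nM (1.72-fold, log2 fold change 0.78 ± 0.12 SE, limma adjusted p = 0.00105). gsr (ENSDARG00000019236) had 986, 1078 and 937 in the control, 823 to 1228 at 3 nM, 1221, 1310 and 1395 at 30 nM and 1867, 1681 and 1597 at 100 nM. The control, 30 nM and 100 nM libraries did not overlap, and the rise at 100 nM was 1.71-fold (0.78 ± 0.14 SE, adjusted p = 0.00287). gclc (ENSDARG00000013095) went from 1236, 1591 and 1238 to 1935, 2167 and 1933, a rise of 1.49-fold (0.58 ± 0.12 SE, adjusted p = 0.00738) that was not called with equal totals (0.138) or with only these 2 groups in the fit (0.0684).

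Peroxiredoxins reduce peroxides, most of them with electrons from thioredoxin. Among the genes of thioredoxin, the peroxiredoxins and sulfiredoxin, 4 of 8 rose at 100 nM and 0 fell. Of all genes tested, 9.63% were called higher and 7.9% lower. prdx1 (ENSDARG00000058734), a cytosolic peroxiredoxin gene, had 2538, 1847 and 1840 normalised counts in the control, 2296 to 2956 in the 6 libraries at 3 and 30 nM, and 5491, 3471 and 5038 at 100 nM. The 100 nM libraries stood above the other 9, at 2.23-fold the control (log2 fold change 1.16 ± 0.17 SE, limma adjusted p = 0.00119). The thioredoxin gene txn (ENSDARG00000044125) had 1440, 981 and 1054 in the control and 2454, 1444 and 2012 at 100 nM, so that the groups just failed to overlap. Its rise (0.75 ± 0.21 SE, adjusted p = 0.0317) was not called without control replicate 2 (0.0879) or replicate 3 (0.111), or without 100 nM replicate 1 (0.118) or replicate 3 (0.0902). It was also not called with only the control and 100 nM groups in the fit (0.121).

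prdx5 rose 1.54-fold, from 2695, 1839 and 2242 to 4079, 2933 and 3389 normalised counts (log2 fold change 0.62 ± 0.16 SE, limma adjusted p = 0.0195). That call was lost without control replicate 2 (0.0554) or replicate 3 (0.0614), or without 100 nM replicate 1 (0.0748) or replicate 3 (0.051). It was also lost with only the control and 100 nM groups in the fit (0.115). prdx6 had the smallest called rise, from 1813, 2052 and 1921 to 2405, 2310 and 2199 (0.26 ± 0.08 SE, adjusted p = 0.0465). It lost its call without any of the libraries taken in turn except control replicate 2 (adjusted p up to 0.138), with no filter (0.0536) and with equal totals (0.694). The call of prdx6 was also lost with only the control and 100 nM groups in the fit. prdx2 (0.27 ± 0.18 SE, adjusted p = 0.355), the mitochondrial prdx3 (0.13 ± 0.12 SE, 0.523) and the endoplasmic reticulum gene prdx4 (−0.02 ± 0.10 SE, 0.894) were not called. srxn1, which encodes the sulfiredoxin that repairs overoxidised peroxiredoxins, had 41, 48 and 36 in the control and 34, 27 and 28 at 100 nM. Its libraries at 100 nM all lay below the control, but the difference (−0.47 ± 0.19 SE, adjusted p = 0.109) was called only with equal totals (0.037).

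Of the 8 glutathione peroxidases, superoxide dismutases and catalase, 1 rose at 100 nM and 0 fell. Of all genes tested, 9.63% were called higher and 7.9% lower, so this count is near the share over all genes. The gene that rose was gpx3 (ENSDARG00000043342), which encodes the secreted glutathione peroxidase. It had 548, 903 and 545 normalised counts in control pools, 655 to 733 at 3 nM, 876, 1082 and 1062 at 30 nM and 2027, 2172 and 2462 at 100 nM. The 30 nM libraries overlapped the control because control replicate 2 was high. Their difference (log2 fold change 0.63 ± 0.18 SE, limma adjusted p = 0.209) was called only without that control library (0.00774). The 100 nM libraries lay far above all others, at 3.42-fold the control (log2 fold change 1.77 ± 0.18 SE, limma adjusted p = 1.13e-04).

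gpx4a (ENSDARG00000068478), a gene of the glutathione peroxidase that reduces lipid peroxides in membranes, had 16297, 7636 and 12004 normalised counts in the control, 20567, 15520 and 18284 at 3 nM, 20576, 14366 and 18608 at 30 nM and 7855, 3742 and 7001 at 100 nM. The 100 nM libraries lay below all 6 libraries at 3 and 30 nM but overlapped control replicate 2. The fall from 30 to 100 nM was 2.99-fold (log2 fold change −1.58 ± 0.31 SE, limma adjusted p = 0.00926), and it was called in all 18 alternatives, with adjusted p up to 0.0431. Against the control, 100 nM was lower by an amount just outside the threshold (−0.95 ± 0.31 SE, adjusted p = 0.056). It passed the threshold with equal totals (0.011), without either control replicate 2 (0.0167) or 100 nM replicate 1 (0.048), and with the replicate number in the model. Its duplicate gpx4b had 6673, 3372 and 4965 in the control and 9228, 4814 and 6775 at 100 nM and was not called (0.48 ± 0.30 SE, adjusted p = 0.305).

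The classical scavenger genes were not called against the control at any concentration, though sod1 and cat were with the replicate number in the model. sod1, of the cytosolic superoxide dismutase, had 3741, 2819 and 3199 normalised counts in the control, 4423, 3728 and 4261 at 3 nM, 4166, 3956 and 4300 at 30 nM and 3788, 2937 and 3448 at 100 nM. The 30 nM libraries lay above the control and the 100 nM libraries overlapped it, with log2 fold changes of 0.35 ± 0.13, 0.36 ± 0.13 and 0.06 ± 0.13 SE and limma adjusted p of 0.415, 0.366 and 0.781. sod2, of the mitochondrial enzyme, had 1791, 1792 and 1829 in the control, 2115 to 2240 at 3 nM, 2070 to 2239 at 30 nM and 1608 to 2198 at 100 nM. The 6 libraries at 3 and 30 nM lay above the control (0.28 and 0.26 on the log2 scale) without passing the threshold (adjusted p = 0.426 and 0.463). The catalase gene cat had 2604, 4185 and 3007 in the control and 1695, 2949 and 2381 at 100 nM (−0.49 ± 0.23 SE, adjusted p = 0.168), and gpx1a (0.01 ± 0.16 SE) and gpx1b (0.33 ± 0.14 SE) had adjusted p of 0.977 and 0.127.

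Among genes of haem, quinones, metal and iron, 3 of 6 rose at 100 nM and 0 fell. Of all genes tested, 9.63% were called higher and 7.9% lower. fth1a (ENSDARG00000015551), which encodes the heavy chain of the iron store ferritin, had 23124, 22644 and 24180 normalised counts in the control, 29345, 25127 and 29412 at 3 nM, 29633, 29202 and 30293 at 30 nM and 50643, 40677 and 47616 at 100 nM. The libraries of every exposed group lay above the control, and the rise was called at 100 nM (1.98-fold, log2 fold change 0.98 ± 0.13 SE, limma adjusted p = 4.35e-04) and between 30 and 100 nM (0.63 ± 0.13 SE, adjusted p = 0.00977). The second ferritin gene fth1b (ENSDARG00000007975) had 515, 635 and 499 in the control, 838, 745 and 729 at 3 nM, 755, 818 and 757 at 30 nM and 869, 634 and 758 at 100 nM. Its log2 fold changes were 0.49, 0.51 and 0.45, each ± 0.13 SE, with adjusted p of 0.341, 0.162 and 0.0358. The 100 nM call was lost with equal totals, with only the control and 100 nM groups in the fit, and without 8 of the 12 libraries taken in turn. Those libraries were control replicates 1 and 3, 3 nM replicates 2 and 3, 30 nM replicates 1 and 3 and 100 nM replicates 1 and 3, with adjusted p up to 0.136 for fth1b.

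mt2 (ENSDARG00000041623), the metallothionein gene, had 5419, 2661 and 4030 normalised counts in the control, 5674, 4617 and 5599 at 3 nM, 6003, 4852 and 5336 at 30 nM and 10403, 6025 and 7564 at 100 nM. The 100 nM libraries lay above all others, although 100 nM replicate 2 was barely higher than 30 nM replicate 1. The rise was 2.01-fold (log2 fold change 1.01 ± 0.25 SE, limma adjusted p = 0.0172) and was not called without control replicate 3 (0.0506) or 100 nM replicate 1 (0.0664). It was also not called with only the control and 100 nM groups in the fit (0.112). slc40a1, of the iron exporter ferroportin, had 5072, 3500 and 3867 in the control and 5792, 4110 and 5836 at 100 nM (0.34 ± 0.18 SE, adjusted p = 0.221).

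A pair of genes often used as markers of an NRF2 response were not called. hmox1a (ENSDARG00000027529), of the haem-degrading enzyme haem oxygenase, had 581, 850 and 371 normalised counts in the control, 493, 629 and 779 at 3 nM, 278, 574 and 526 at 30 nM and 318, 368 and 414 at 100 nM. Its control libraries spread more widely than those at 100 nM and overlapped them (log2 fold change −0.64 ± 0.32 SE, limma adjusted p = 0.205). nqo1 (ENSDARG00000010250), of a quinone reductase, had 4317, 2183 and 2486 in the control, 2705 to 3226 at 3 nM, 3119 to 3833 at 30 nM and 3989, 3175 and 3692 at 100 nM. Control replicate 1 was the highest of all 12 libraries for nqo1 and the other control libraries the lowest. The difference at 100 nM (0.33 ± 0.21 SE, adjusted p = 0.319) became 0.63 with adjusted p = 0.00986 without that library.

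Markers of several cell types of whole larvae also moved, some of them already at 30 nM. At 30 nM, 2 hepatocyte markers and 1 macrophage marker were called higher and 0 lower, where 0.379% of all genes were called higher and 0.152% lower. No erythrocyte or enterocyte marker was called at 30 nM. The calls that follow are at 100 nM, where 9.63% of all genes tested were called higher and 7.9% lower. Of 10 tested erythrocyte markers, 7 rose and 0 fell, and their summed level was 15637 to 24180 normalised counts in control pools, 20087 to 30823 at 3 nM, 22276 to 25984 at 30 nM and 28461 to 47857 at 100 nM. Of 12 tested hepatocyte markers, 4 rose and 0 fell. Their sums, over all 13 entries listed under these names, were 114897 to 152038 in the control, 143146 to 172097 at 3 nM, 173116 to 214892 at 30 nM and 178192 to 224252 at 100 nM. 3 of these hepatocyte markers (tfa, cp and hp) also stand in the list of iron and haem handling. Of 12 macrophage markers, 3 rose and 1 fell, with sums of 4167 to 5957 in the control and 5401 to 6657 at 100 nM, and of 9 enterocyte markers 1, fabp6, rose and 0 fell, with sums of 88790 to 161567 and 87651 to 149718. The median log2 fold change of the enterocyte markers was −0.64, of the opposite sign to the single called rise. None of these marker genes was at 0 in all libraries, and their part in the members' changes was not tested.

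All 4 genes of the pentose phosphate pathway were called at 100 nM, 3 of them higher and 1 lower. Of all genes tested, 9.63% were called higher and 7.9% lower. pgd encodes 6-phosphogluconate dehydrogenase, which makes NADPH, and it went from 1487, 2244 and 1653 to 2638, 2842 and 2643 normalised counts (log2 fold change 0.61 ± 0.14 SE, limma adjusted p = 0.0125). The call of pgd was lost without control replicate 3 (0.0554), with equal totals (0.147) and with only the control and 100 nM groups in the fit. taldo1, of the transaldolase, went from 2101, 2047 and 1974 to 2785, 2707 and 2775 (0.43 ± 0.08 SE, adjusted p = 0.00371), with little spread in either group, but was not called with equal totals (0.112) or with only these 2 groups in the fit (0.0643).

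The 2 transketolase genes went opposite ways. tktb (ENSDARG00000006019) had 4976, 5314 and 4510 normalised counts in control pools, 4688 to 5176 at 3 nM, 5448, 5812 and 5732 at 30 nM and 7184, 7848 and 8009 at 100 nM, a rise of 1.56-fold (log2 fold change 0.64 ± 0.09 SE, limma adjusted p = 9.57e-04). tkta (ENSDARG00000029689) had 5355, 5777 and 5453 in the control, 4831, 4820 and 4357 at 3 nM, 4857, 4095 and 3660 at 30 nM and 4612, 3774 and 3669 at 100 nM. All 9 exposed libraries lay below the control for tkta, with a fall that was called at 100 nM (−0.47 ± 0.12 SE, adjusted p = 0.0232) but not at 30 nM (−0.40 ± 0.12 SE, 0.254). That call was lost without control replicate 2 (0.0563) or replicate 3 (0.0667), or without 100 nM replicate 2 (0.0513) or replicate 3 (0.0851). It was also lost with only the control and 100 nM groups in the fit (0.102).

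The 6 duplicate pairs were compared by the ratio of their normalised counts within each library, which cancels the scaling between libraries. The ratio of tktb to tkta was 0.827 to 0.929 in the control, 0.992 to 1.08 at 3 nM, 1.12 to 1.57 at 30 nM and 1.56 to 2.18 at 100 nM. Its groups did not overlap from the control to 30 nM, and those at 30 and 100 nM overlapped slightly. Its size is no comparison of levels between genes, since the values are not per length. The ratio of gpx4b to gpx4a was 0.409 to 0.442 in the control, 0.317 to 0.39 in the 6 libraries at 3 and 30 nM and 0.968 to 1.29 at 100 nM, so that it was lowest at the intermediate concentrations and highest at 100 nM. The ratio of nfe2l2b to nfe2l2a went from 0.0295 to 0.0502 in the control to 0.0794 to 0.119 at 100 nM, with 0.0558 to 0.0696 at 30 nM. That of keap1b to keap1a was 0.776 to 0.847 in the control, 0.633 to 0.763 at 3 nM, 0.776 to 0.924 at 30 nM and 0.996 to 1.44 at 100 nM, so that it lay below the control range at 3 nM and above it at 100 nM. The ratio of fth1b to fth1a fell outside the control range in the other direction, at 0.0156 to 0.0172 against 0.0206 to 0.028, while that of gpx1b to gpx1a overlapped.

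Over the 18 comparisons of a ratio with the control, an exact two-sided permutation test of the 6 libraries cannot give a p below 0.1. By that exact permutation test the pairs of nfe2l2, keap1, gpx4, fth1 and tkt had p = 0.1 at 100 nM (adjusted p = 0.164 over the 18), and gpx1 had p = 0.3. The same smallest value was reached at 30 nM by nfe2l2, gpx4 and tkt and at 3 nM by keap1, gpx4 and tkt. A ratio shows unequal change of its 2 genes and not which of them moved. Duplicates with similar sequence may share reads, so each ratio is uncertain to that extent.

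**Figure D3:**
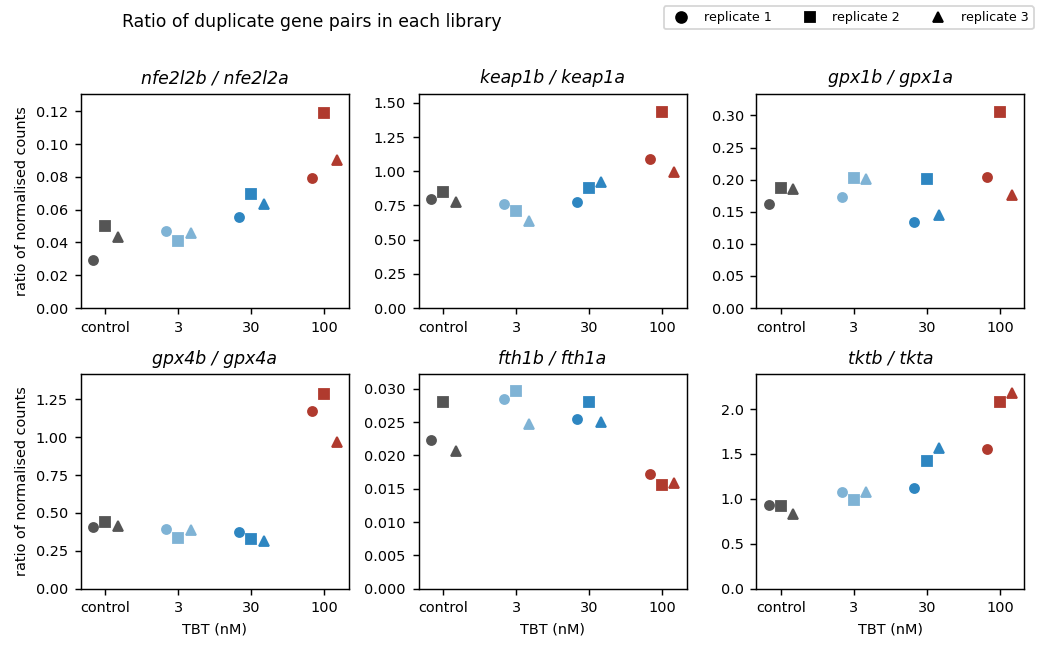
Ratio of normalised counts (y axis, linear from 0) of 6 duplicate gene pairs in each of the 12 libraries by TBT concentration in nM (x axis); marker shapes give the replicate number. At 100 nM the ratios of nfe2l2b, keap1b, gpx4b and tktb to their duplicates lie above the control range and that of fth1b to fth1a lies below it.

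Within the groups the members differed by pool. Replicate 1 was above replicate 2 in all 4 groups for 16 of the 36 members (44.4%), where this held for 26.1% of all genes tested, and replicate 2 was above replicate 1 in all 4 for 2 members (5.56%), hmox1a and cat, where this also held for 26.1%. The library total was also higher in replicate 1 than in replicate 2 of each group. It was 30407574 against 26515823 in the control and 30480833 against 28294209 at 3 nM. At 30 nM it was 31308532 against 28277738, and at 100 nM 35772586 against 29687308. These counts of members were not repeated with equal totals, so they depend on the scaling as deposited. For mt2 the difference between the 2 pools on the log2 scale was 1.03 in the control and 0.79 at 100 nM, for gpx4a 1.09 and 1.07, and for nfe2l2a 0.62 and 0.84. For gclc, gclm, pgd and gpx3 the control difference had the other sign, at −0.36, −0.55, −0.59 and −0.72. taldo1 (0.04 in the control and 0.04 at 100 nM) and tktb (−0.09 and −0.13) hardly differed between these pools. The labels do not say what the replicate number marks, and more members were called with it as a term in the model, as given under the dependence on processing.

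**Figure D4:**
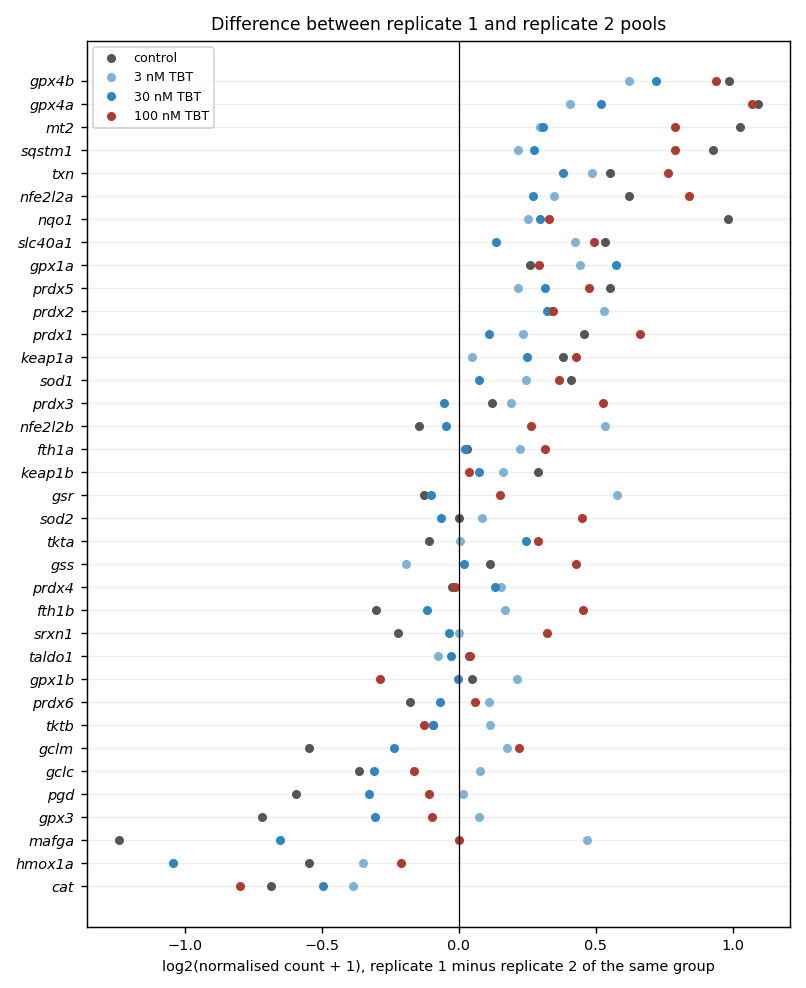
Difference in log2(normalised count + 1) between replicate 1 and replicate 2 of the same group (x axis) for the 36 members tested (y axis, ordered by mean difference), with 1 point per group. Points of gpx4a, mt2, sqstm1 and nfe2l2a lie right of 0 in all 4 groups, and those of hmox1a and cat left of 0.

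Other genes of the same pathways were counted from lists. Beside every list, 9.63% of all genes tested were called higher at 100 nM and 7.9% lower. Of 25 tested genes of cystine, NADPH and glutathione turnover, 8 rose and 4 fell at 100 nM, with a median log2 fold change of 0.04. slc7a11, the gene of the cystine importer, went from 103, 116 and 143 normalised counts to 644, 346 and 540 (2.04 ± 0.25 SE, limma adjusted p = 3.37e-04). The glutamine synthetase gene glula went from 8006, 10057 and 9006 to 26227, 26708 and 26427 (1.56 ± 0.14 SE, adjusted p = 4.94e-05), and cbsb, of a cystathionine beta-synthase, rose by 1.24 ± 0.14 SE (adjusted p = 2.27e-04). All 3 libraries at 100 nM lay above the control for slc7a11, glula and cbsb. The duplicate cbsa was among the 4 that fell, from 727, 855 and 723 to 555, 603 and 563 (−0.42 ± 0.10 SE, limma adjusted p = 0.0129).

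Of 22 tested thioredoxin and glutaredoxin system genes, 4 rose and 0 fell at 100 nM (median log2 fold change 0.18), led by sesn2, a stress-induced sestrin gene (1.64 ± 0.17 SE, limma adjusted p = 1.29e-04), msrb2, of a methionine sulfoxide reductase (1.64 ± 0.27 SE, adjusted p = 0.00198), and txnl1 (0.65 ± 0.13 SE, adjusted p = 0.00683). Of 15 tested NRF2 partners and repressors, 5 rose and 0 fell (median 0.21). The small MAF gene maff rose by 1.03 ± 0.13 SE (adjusted p = 4.64e-04), and nfe2l1a and nfe2l1b, of the NRF2 relative NRF1, by 1.16 ± 0.17 SE (adjusted p = 0.00113) and 0.55 ± 0.09 SE (adjusted p = 0.00244). Also called higher were bach1b (1.01 ± 0.19 SE, limma adjusted p = 0.00438) and its duplicate bach1a (0.43 ± 0.10 SE, 0.0146).

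Of 26 tested genes of iron and haem handling, 6 rose and 1 fell at 100 nM (median log2 fold change 0.29). hpx, of the haem-binding plasma protein hemopexin, had 5, 15 and 11 normalised counts without TBT and 64, 198 and 92 at 100 nM (3.34 ± 0.51 SE, limma adjusted p = 0.00124). blvrb, of a biliverdin reductase, went from 891, 618 and 620 to 1561, 1178 and 1605 (1.04 ± 0.16 SE, adjusted p = 0.00164). hamp, of the iron hormone hepcidin, fell from 192, 316 and 145 to 67, 94 and 57 (−1.53 ± 0.36 SE, adjusted p = 0.0137). Of 24 tested genes of zinc and copper handling, 5 rose and 3 fell (median 0.21), with the zinc exporter gene slc30a4 (0.77 ± 0.09 SE, adjusted p = 3.32e-04), the copper pump gene atp7a (0.40 ± 0.08 SE, adjusted p = 0.00793) and slc39a5 (2.04 ± 0.47 SE, adjusted p = 0.0128), having the lowest p. slc39a5 had 2 to 9 normalised counts in the 9 libraries up to 30 nM and 20, 16 and 34 at 100 nM, so that it passed the filter on low values only through the 100 nM group. It is counted among the 5 that rose and in the median, but its call is no support. The 3 that fell were slc39a7 (−0.37 ± 0.09 SE, limma adjusted p = 0.0148), slc39a4 (−1.91 ± 0.47 SE, 0.0167) and slc30a1a (−0.60 ± 0.18 SE, 0.0411). For slc30a1a the libraries of every exposed group lay below the control.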

How the data were processed

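Poly(A) RNA of 12 pools of whole larvae was sequenced as stranded paired reads, per the labels' protocols. Tools listed in the submitters' processing notes, with no role or order, are DESeq2 1.10.1, RSEM 1.2.28, STAR 2.5.1b and CASAVA, and the build is GRCz10. The authors deposited whole numbers headed normalised counts, treated here as a score, since they are not raw counts. Their raw depth is unknown, and no interval of counting error is given. A count test planned in case of raw counts was therefore not used.

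The 22404 genes that reached a value of 10 in 3 or more libraries were tested on log2(value + 1) with limma 3.58.1 in R 4.3.3, in 1 linear model of all 12 libraries with a mean per group, eBayes with a variance trend, two-sided, with Benjamini-Hochberg adjustment over all genes and a threshold of 0.05. The fit was run on simulated data with known changes. Those data held no structure shared by replicate number, so they say nothing about leaving that number out of the main fit. There were 5 comparisons and 18 alternatives: a pseudocount of 8, no filter, a minimum of 50, only the 2 groups compared, equal totals, the replicate number as a block, and leaving out each of the 12 libraries. Pools of the same group correlated at r between 0.969 and 0.988 and none was treated as a duplicate. All members may be named. Of other lists, the 3 called genes with the lowest p at 100 nM are given, and cbsa besides, as the duplicate of cbsb. The remaining called NRF2 partners and repressors, and the zinc and copper genes that fell, are given as well. The members and lists were chosen with earlier results of these data known. Coordinates and sequences of genes are not analysed here.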

Additional observations from a re-analysis of the deposited data

How the results depend on the processing

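The number of members called at 100 nM was 20; it was 10 with only the 2 groups compared, and 13 to 20 when 1 library was left out (13 without control replicate 3). Between 100 and 30 nM it was 11, against 7 with only those 2 groups, and 8 to 13 with 1 library left out. At 30 nM it was 1, and 0 to 3 with 1 library left out, and at 3 nM and between 30 and 3 nM it was 0 each time a library was left out. Over all genes, leaving out 1 library gave 2289 to 4621 calls at 100 nM, 1041 to 2492 between 100 and 30 nM, 28 to 267 at 30 nM, 0 to 33 at 3 nM and 3 to 38 between 30 and 3 nM. With only the 2 groups compared these counts were 1153, 1164, 15, 0 and 103, and with equal totals 62 at 30 nM and 19 between 30 and 3 nM. The cause was not tested.

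Same-numbered pools of different groups deviated together for numbers 1 (r of 0.29 to 0.56) and 2 (0.35 to 0.58) but not for number 3 (−0.02 to 0.15). In all, 10 of 12 libraries correlated best with their own number. For control and 30 nM replicate 3 that best r was only 0.10 and 0.05. Pools numbered 1 and 2 in different groups went opposite ways (r of −0.60 to −0.29). Deviations were taken from group means, so the correlations of numbers 1 and 2 are not separate evidence. The correlations point to a structure shared by number, at least for numbers 1 and 2, which the main fit left out because the labels do not explain the number. The main counts therefore depend on that choice. Adding that number as a replicate block gave 26 members called at 100 nM, 21 between 100 and 30 nM, 4 at 30 nM and 5 at 3 nM, and over all genes 7678, 4540, 778, 1234 and, between 30 and 3 nM, 129. The members it added at 100 nM were gpx4a (adjusted p = 5.86e-04, limma), gpx4b (0.0018), cat (0.00243), keap1a (0.00647), slc40a1 (0.0249) and prdx2 (0.025). It added sod1 at 3 nM (0.0351) and 30 nM (0.0337), gpx4a, gpx4b, prdx2 and fth1b at 3 nM (0.0313 to 0.048), and gpx4a (0.038) and tkta (0.0415) at 30 nM.

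Of 646 values of single members at 100 nM under the alternatives, 570 kept direction and side of the threshold, 50 lost the call, 13 gained it and 13 changed sign. The last were of uncalled members: with equal totals the log2 fold changes were −0.0594 for prdx3, −0.18 for gpx1a, −0.13 for sod1 and −0.0883 for sod2. With 1 library left out they ran from −0.00176 to 0.26 for prdx3, −0.11 to 0.0186 for prdx4, −0.0819 to 0.10 for gpx1a and −0.0367 to 0.17 for sod1. With the minimum of 50, mafga and srxn1 were not tested. Raw depth is unknown, so what it limits was not measured.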
